A study of Homo sapiens with 24 samples.

Results

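The interferon regulatory factors IRF1, IRF2, IRF5, IRF7 and IRF8 and the IRF2-binding proteins IRF2BP1, IRF2BP2 and IRF2BPL are transcription factors and cofactors of the interferon system. These 8 genes were picked by symbol from a table of 19158 genes, with earlier results of these data known. Values for 7 of the 8 are given, and the RNA level of IRF8 was not analysed here. RNA came from ARP1, a cultured human multiple myeloma line, a tumour of antibody-secreting plasma cells. Cultures received either PBS, the vehicle, or LPA for 24 h; the label states 4 mg/mL for LPA and does not spell the name out, which is read here as lysophosphatidic acid, a signalling lipid, and the unit of that dose is in doubt. All libraries share the 1 cell line, and no other genotype or agent is given. There were 3 PBS and 3 LPA libraries, each sequenced in 4 lanes that were averaged as 1 replicate. Whether the libraries of 1 treatment were separate cultures is not stated, so every p below speaks only of library-to-library spread, which may be technical.

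Values are in FPM (fragments scaled to the total counted in a lane, a CPM unit). Library totals were 5498910 to 5615625 reads with PBS and 6941747 to 8740992 with LPA, so that 1 read stands for 0.114 to 0.182 FPM. PBS 1 and PBS 3, and likewise LPA 1 and LPA 2, differed little beyond the lanes of 1 library, with chi-squares per degree of freedom of 1.36 and 1.37 against 1.14 to 1.18 between lanes. PBS 2 stood apart from its group, at 3.97 and 4.05, and LPA 3 did so at 2.51 and 2.98, and calls of named genes that are lost when a library is left out are stated beside them. Of 10 plasma cell and myeloma markers, all were detected, and their summed level was 1710 to 1873 FPM in the PBS libraries and 2757 to 2937 FPM in the LPA libraries. By limma's test 8 of the 10 rose and 0 fell, at an unadjusted p under 0.05 as well, and on rescaled FPM 7 rose. Over all tested genes 22.5% were higher and 4.49% lower by limma on FPM as deposited. On rescaled FPM 1633 of 16274 genes were higher. CD38 and SLAMF7 did not pass on FPM as deposited, at log2 fold changes of -0.27 (limma, adjusted p = 0.282) and -0.04 (0.781). By edgeR's test 0 of the 10 were lower. JCHAIN, the joining chain of polymeric antibodies, went from 754 to 1379 FPM. SDC1, the plasma cell surface proteoglycan syndecan-1, went from 60.7 to 118 FPM. Markers of other lineages were mixed, with some at or near 0 and others not. Among 5 of 6 mature B cell markers with values, PAX5 lay at 0 to 0.546 FPM, and the list's sum of 65.9 to 91.1 FPM was mostly CIITA and BCL6. CD14, of the myeloid list (4 of 7 with values, summed level 3.46 to 7.52 FPM), lay at 0 to 0.538 FPM. CSF1R, the largest part of that sum in each library, was at 2.45 to 6.04 FPM. ITGAM lay at 0.540 to 2.35 FPM and CD163 at 0.289 to 1.46 FPM. The T and NK cell list (4 of 6 with values) summed to 20.4 to 28.9 FPM, nearly all of it KLRD1 at 19.1 to 26.4 FPM. The markers' part in the results below was not tested. In bulk RNA, fewer cells that express a gene and less of its RNA per cell cannot be told apart.

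Interferon regulatory factors share a DNA-binding domain that reads GAAA repeats in the interferon-stimulated elements of antiviral, antigen presentation and cytokine genes. IRF1 is an activator whose own gene is induced by interferon gamma, IRF2 competes for the same elements and mostly represses, IRF5 and IRF7 are activated by phosphorylation below Toll-like and nucleic acid receptors, and IRF8 guides B cell and myeloid differentiation. IRF2BP1, IRF2BP2 and IRF2BPL carry a zinc finger and a RING-type domain, and the first pair was found as corepressors bound to IRF2.

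Promoter sequence from RefSeq (GRCh38.p14) was available for 6 of the 8 genes, in 11 windows that run from 250 bases before to 50 bases after a transcription start. The windows were searched on both strands for the gamma-activated site of interferon gamma responses (GAS, TTCNNNGAA), for an IRF repeat (GAAANNGAA) and for the kappaB consensus of NF-kappaB. Of 35116 windows of this length across the genome, 7.66% held the GAS letters, 8.11% the IRF repeat and 11.3% the kappaB consensus. IRF1 and IRF2BP1 are shown because a GAS match lies upstream of their start, and capitals mark the matches. The IRF1 stretch, chr5:132490804-132491023 on the minus strand, ends 31 bases before the start, with the GAS match 124 to 116 bases and a kappaB match 50 to 41 bases before it. The IRF2BP1 stretch, chr19:45886172-45886261 on the minus strand, has its GAS match 57 to 49 bases before the start. The windows of IRF8, IRF2BP2 and IRF2BPL held none of the motifs, and 1 window of IRF5 held an IRF repeat across its start. IRF2 and IRF7 had no window.
IRF1: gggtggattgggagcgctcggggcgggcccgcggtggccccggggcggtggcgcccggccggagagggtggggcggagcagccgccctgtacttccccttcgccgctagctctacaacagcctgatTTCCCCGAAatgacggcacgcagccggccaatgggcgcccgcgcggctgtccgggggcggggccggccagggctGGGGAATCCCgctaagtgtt
IRF2BP1: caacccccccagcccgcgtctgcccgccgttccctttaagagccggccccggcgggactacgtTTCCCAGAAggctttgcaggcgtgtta
A match of letters is a description and not a binding site, and windows without one say nothing of the factors.

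Of the 7 genes with values, 5 were lower with LPA (IRF1, IRF2BPL, IRF5, IRF7 and IRF2BP1) and 2 did not pass the test (IRF2 and IRF2BP2). None was higher by limma, by edgeR or by DESeq2, nor at an unadjusted p under 0.05. Across all 16274 genes tested, 4.49% were lower and 22.5% higher, by limma on log2(FPM + 1) with Benjamini-Hochberg adjustment over all genes at 0.05. In the same 5 genes the LPA libraries all lay below the PBS libraries, against 7.42% of all tested genes. The median tested gene had a log2 fold change of 0.13, LPA over PBS, which is 0.01 after FPM were rescaled by median-of-ratios size factors. The count depended on the scaling and the tool: on rescaled FPM all 7 genes were lower, against 9.20% of all genes. With edgeR's quasi-likelihood test on the recovered reads 6 were lower, against 9.40%. DESeq2, which also rescales, called 5, against 943 of the 16274 genes.

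**Figure D1:**
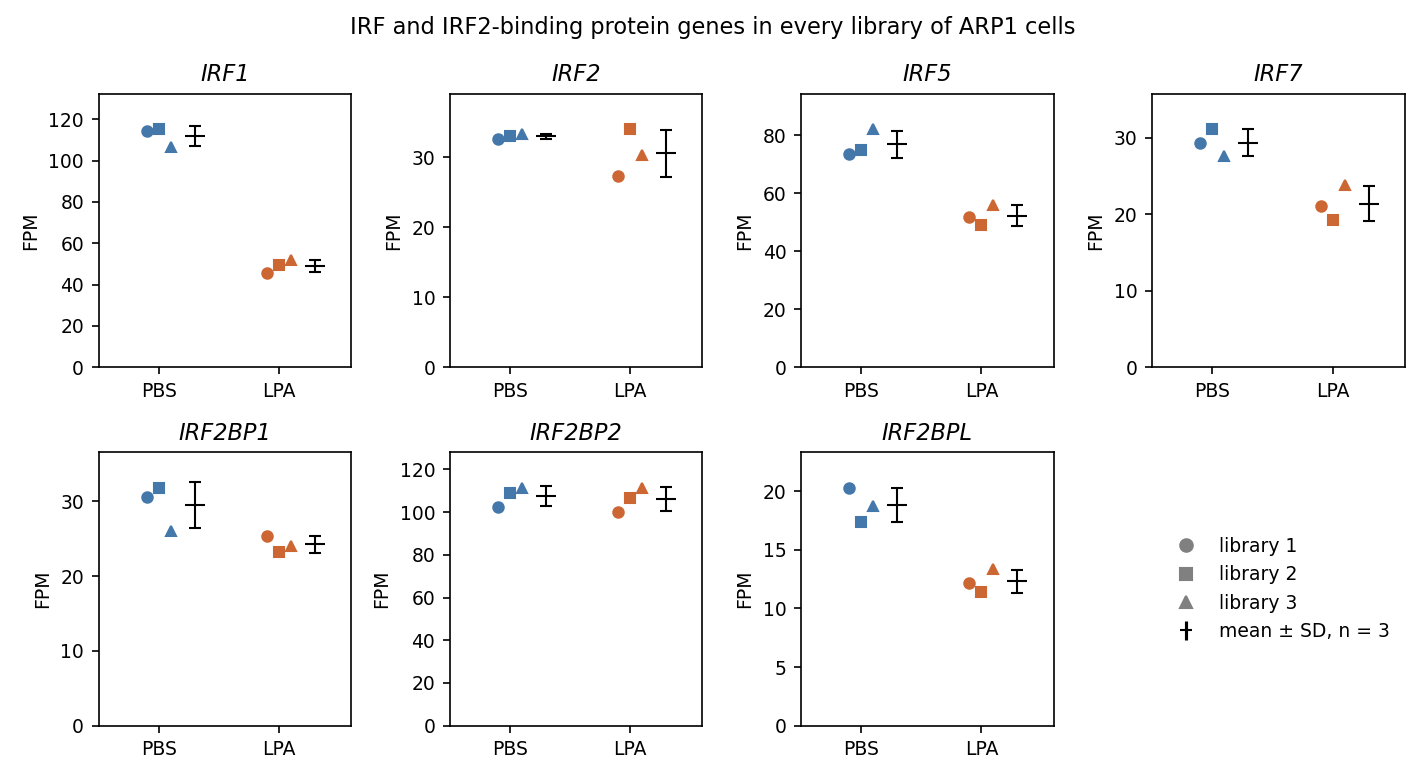
FPM of the 7 genes in each of the 3 PBS and 3 LPA libraries (points) with the group mean (line) and its SD (bar, n = 3). Each panel has its own vertical axis from 0. The PBS and LPA points overlap for IRF2 and IRF2BP2, and in the other 5 panels every LPA point lies below every PBS point.

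IRF1 was the gene of the set with the lowest fold change. Its level was 114, 115 and 107 FPM in PBS 1 to 3, and 45.7, 49.3 and 51.9 FPM in LPA 1 to 3. The groups did not overlap, and no single lane crossed either: the 12 PBS lanes held 93.1 to 127 FPM and the 12 LPA lanes 35.1 to 61.6 FPM. The mean went from 112 ± 4.69 to 49.0 ± 3.08 FPM (SD, n = 3 each), 2.29-fold lower. The log2 fold change was -1.18 ± 0.08 (SE; adjusted p = 8.22e-18, limma), which ranked 60 from the lowest of the 16274 tested genes. Among the 1145 tested genes with a PBS level at or above that of IRF1, only 12, with IRF1 among them, had a log2 fold change as low. Between 360 and 641 reads stood behind each library's value, and over every alternative the log2 fold change stayed between -1.34 and -1.13.

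Reads at the IRF1 locus need caution. A protein-coding gene model on the opposite strand, not analysed here, overlaps exons of IRF1. IRF1-AS1, a noncoding gene on that strand too, has exons that overlap those of IRF1, and the strand setting of the count is unknown here. IRF1-AS1 went from 23.2 ± 2.33 to 16.6 ± 3.30 FPM (n = 3), with a change on the log2 scale of -0.47 ± 0.12 (SE; adjusted p = 0.00317, limma), which did not pass without LPA 2, at -0.32 (adjusted p = 0.0688). The ratio of IRF1 to IRF1-AS1 was 5.48, 4.52 and 4.58 in the PBS libraries and 2.70, 3.75 and 2.63 in the LPA libraries. Every LPA library had a lower ratio than every PBS library. The log2 difference was -0.70 (two-sided exact permutation p = 0.1, the smallest that 3 libraries against 3 allow). IRF1 had the lower log2 fold change of this pair, so the sign of the ratio was given by that and adds no support. With the strand setting unknown, the ratio cannot separate reads of shared exons. IRF2BP2 and IRF2BPL also overlap antisense genes, which were not analysed here.

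IRF2, the antagonist of IRF1 at shared elements, was close to level. It measured 32.6, 33.1 and 33.3 FPM with PBS and 27.4, 34.0 and 30.3 FPM with LPA. LPA 2 lay above all PBS libraries and the other LPA libraries below them, so the groups overlapped. The log2 fold change was -0.11 (SE 0.10; limma, adjusted p = 0.439); on rescaled FPM it was -0.25 (limma, adjusted p = 0.0491). The ratio of IRF1 to IRF2 RNA was taken within each library, which no scaling can move. Protein and binding were not measured, and with IRF2 near level the ratio mostly restates the fall of IRF1. That ratio was 3.50, 3.48 and 3.20 with PBS and 1.67, 1.45 and 1.71 with LPA, without overlap. It was 2.11-fold lower with LPA, a difference of -1.08 in the log2 ratio, from 1.76 ± 0.07 to 0.68 ± 0.13 (SD, n = 3; two-sided exact permutation p = 0.1, the smallest possible).

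IRF5, which acts downstream of Toll-like receptors and MYD88 and is known in B cells and myeloid cells for inflammatory cytokine genes, was lower with LPA. Its level was 73.3, 75.0 and 82.0 FPM with PBS and 51.7, 49.0 and 56.0 FPM with LPA. The highest LPA library lay well under the lowest PBS library. Across lanes the 12 PBS values ran from 64.3 to 90.3 FPM and the 12 LPA values from 41.9 to 62.6 FPM, again apart. The mean went from 76.8 ± 4.61 to 52.3 ± 3.53 FPM (n = 3), 1.47-fold lower, with a log2 fold change of -0.55 ± 0.08 (SE; adjusted p = 5.98e-07, limma).

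IRF7, the factor that amplifies interferon alpha production once it is phosphorylated, was lower as well. It measured 29.4, 31.1 and 27.6 FPM with PBS and 21.0, 19.2 and 23.8 FPM with LPA. The groups did not overlap, with LPA 3 the nearest to the PBS values, although single lanes did: the 12 PBS lanes began at 24.3 FPM and the 12 LPA lanes reached 26.5 FPM. The mean went from 29.4 ± 1.74 to 21.3 ± 2.30 FPM (n = 3), 1.38-fold lower, with a log2 fold change of -0.45 ± 0.11 (SE; adjusted p = 0.00117, limma). IRF5 and IRF7 fell by amounts that their libraries did not separate. The ratio of IRF5 to IRF7 was 2.50, 2.41 and 2.97 with PBS and 2.46, 2.55 and 2.36 with LPA (two-sided exact permutation p = 0.5).

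Of the IRF2-binding proteins, IRF2BPL was clearly lower, IRF2BP1 barely so and IRF2BP2 not. IRF2BPL, a single-exon gene better known from neurodevelopmental disease, measured 20.3, 17.4 and 18.7 FPM with PBS and 12.1, 11.4 and 13.4 FPM with LPA. The groups did not overlap, though with 85 to 114 reads a library these are the lowest counts of the set, and single lanes overlapped (PBS from 12.3 FPM, LPA up to 15.9 FPM). The mean went from 18.8 ± 1.46 to 12.3 ± 0.994 FPM (n = 3), 1.53-fold lower, with a log2 fold change of -0.57 ± 0.13 (SE; adjusted p = 0.000473, limma).

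IRF2BP2, a corepressor known to work with IRF2, had the log2 fold change nearest to 0 in the set. It measured 102, 109 and 111 FPM with PBS and 100.1, 107 and 111 FPM with LPA. The groups overlapped almost entirely, and the log2 fold change was -0.02 (SE 0.07; limma, adjusted p = 0.872). It was called lower on rescaled FPM, at -0.16 (limma, adjusted p = 0.0350), and by edgeR's quasi-likelihood test, at -0.17 (adjusted p = 0.0381). The ratio of IRF2BP2 to IRF2BPL was 5.04, 6.27 and 5.94 with PBS and 8.25, 9.32 and 8.32 with LPA. These groups did not overlap, and the log2 difference was 0.59 (two-sided exact permutation p = 0.1, the smallest possible). The pair was not planned on its own and is 1 of the 21 taken below. Over these the exact permutation p became 0.162 after Benjamini-Hochberg adjustment. The sign of the ratio was given by the fold changes of IRF2BP2 and IRF2BPL and adds no support.

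IRF2BP1, the other corepressor first found with IRF2, lay at the edge of the test. It measured 30.6, 31.8 and 26.0 FPM with PBS and 25.4, 23.3 and 24.1 FPM with LPA. PBS 3 was close to LPA 1, and the groups just failed to overlap, while single lanes overlapped (PBS from 20.9 FPM, LPA up to 31.2 FPM). The mean went from 29.5 ± 3.07 to 24.2 ± 1.08 FPM (n = 3), 1.22-fold lower, with a log2 fold change of -0.27 ± 0.10 (SE; adjusted p = 0.0485, limma). The call held on rescaled FPM (limma, -0.41, adjusted p = 0.00191) and without PBS 3. It was lost without PBS 1 (-0.24, limma adjusted p = 0.150), PBS 2 (-0.21, 0.137), LPA 1 (-0.30, 0.0729), LPA 2 (-0.24, 0.145) or LPA 3 (-0.26, 0.106). Without both PBS 2 and LPA 3, the libraries that stood apart, its adjusted p by limma was 0.164, and 4 genes of the set remained past the test.

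**Figure D2:**
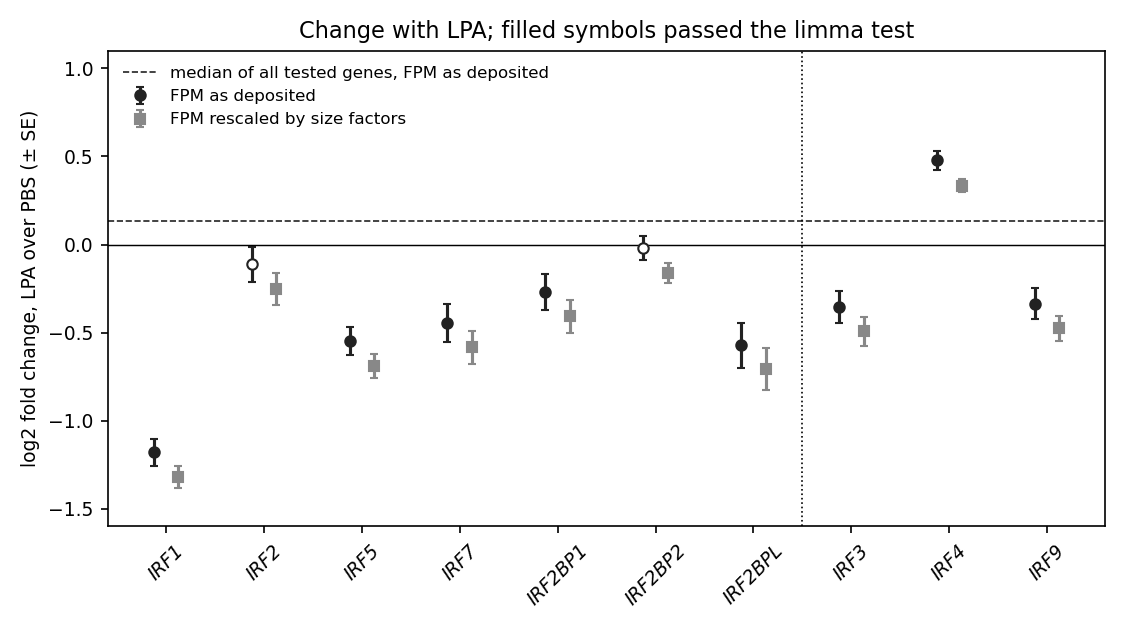
log2 fold change, LPA over PBS, with its SE for the 7 genes and for IRF3, IRF4 and IRF9, on FPM as deposited and on rescaled FPM; filled symbols passed limma's adjusted 0.05. IRF1 lies lowest at -1.18, IRF4 is the one gene above 0 that passed, at 0.48, and IRF2 and IRF2BP2 passed on rescaled FPM only.

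Levels were compared between genes per kilobase of exon (GENCODE release 29). The length was the union of a gene's annotated exons, whether or not ARP1 uses them. How reads spread along transcripts was not examined, so the order of genes is approximate. With PBS the mean levels were 29.5 FPM per kb for IRF1, 23.1 for IRF2BP2 and 23.0 for IRF5. IRF2 stood at 14.3, IRF7 at 13.7, IRF2BP1 at 11.5 and IRF2BPL at 4.52 FPM per kb. In that order the libraries of IRF2BP2 (21.9 to 23.9) and IRF5 (22.0 to 24.6) overlapped, as did those of IRF2 (14.1 to 14.5) and IRF7 (12.9 to 14.5). With LPA, IRF1 dropped from the top of this order to 12.9 FPM per kb, inside the range of IRF2 (11.9 to 14.8, mean 13.3). IRF2BP2 was then highest at 22.7 FPM per kb, with IRF5 next at 15.6 (14.7 to 16.8), which just overlapped IRF2. IRF7 at 9.97 and IRF2BP1 at 9.45 FPM per kb overlapped, and IRF2BPL was lowest at 2.96.

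Ratios within a library were also taken for every pair among the 7 genes, 21 pairs in all. The pairs share genes, so they are not separate results. The smallest exact permutation p of 0.1 became 0.162 after Benjamini-Hochberg adjustment over the 21, so no pair could pass. IRF1 was lower relative to each of the other 6 genes without overlap. Its log2 ratio changed least against IRF2BPL, by -0.58, and against IRF5, by -0.64. The change was -0.73 against IRF7 and -0.92 against IRF2BP1. It was -1.08 against IRF2 and -1.17 against IRF2BP2. IRF1 had the lowest log2 fold change of the set, so the sign of these ratios was given by that and adds no support. Only 0.369% of all tested genes had a log2 fold change at or below that of IRF1, so nearly any reference gene would give this sign.

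**Figure D3:**
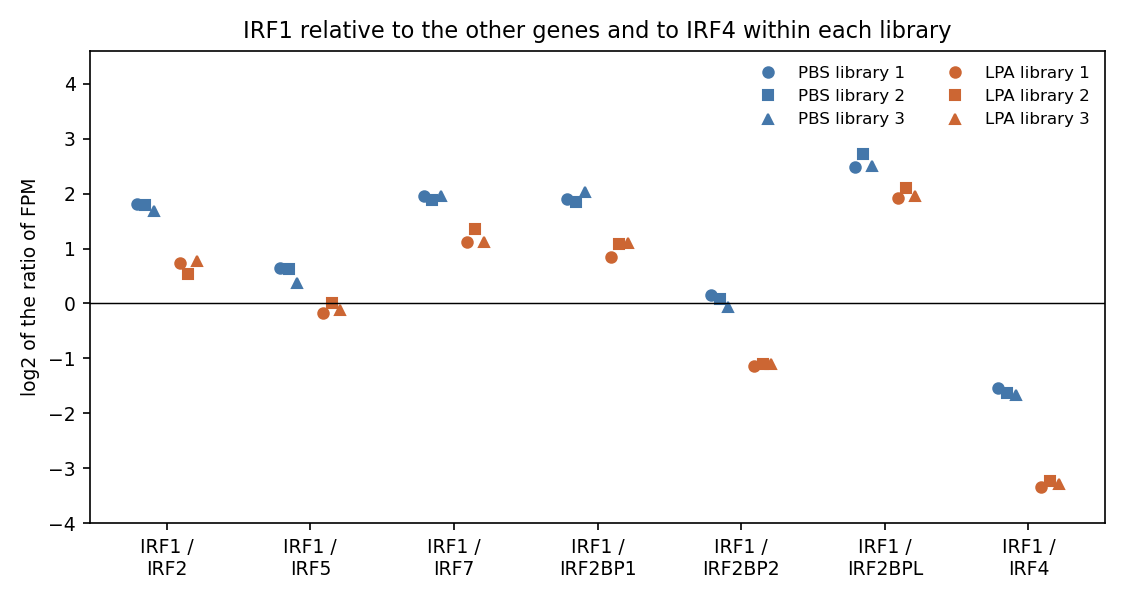
log2 ratio of IRF1 to each other gene of the set and to IRF4 in every PBS and LPA library (points). In every column the 3 LPA points lie below the 3 PBS points, with a difference of -0.58 against IRF2BPL, the smallest, and -1.67 against IRF4.

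Other members of the IRF family went both ways. IRF4, the factor that plasma cells and myeloma cells depend on, rose. It measured 332, 356 and 340 FPM with PBS and 465, 464 and 503 FPM with LPA, with no overlap and a log2 fold change of 0.48 ± 0.05 (SE; adjusted p = 4.62e-10, limma). IRF3, the constitutive partner of IRF7 in interferon beta induction, went from 49.1 ± 4.97 to 38.1 ± 2.54 FPM (-0.35, SE 0.09; limma, adjusted p = 0.00256). Exons of IRF3 overlap those of BCL2L12 on the opposite strand, and exons of IRF9 overlap those of another gene model on the same strand. IRF9, the DNA-binding subunit of the complex that answers interferon alpha and beta, went from 51.8 ± 1.37 to 40.9 ± 2.32 FPM (-0.34, SE 0.09; limma, adjusted p = 0.00252). The ratio of IRF1 to IRF4, chosen after the values were seen, was 0.343, 0.324 and 0.314 with PBS and 0.0983, 0.106 and 0.103 with LPA. It was 3.19-fold lower with LPA, by a log2 difference of -1.67 (two-sided exact permutation p = 0.1, the smallest possible). Because IRF4 rose, most genes are lower relative to it: 93.9% of all tested genes had a log2 fold change at or below that of IRF4, so the sign of such a ratio says little of the set.

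Genes that act around these factors were read from lists of known roles, each described by its counts and its median beside the 0.13 of all tested genes. The counts by limma on FPM as deposited are to be read beside the 4.49% lower and 22.5% higher of all tested genes. Those on rescaled FPM stand beside 9.20% lower and 1633 of 16274 genes higher. Lower counts by edgeR stand beside 9.40% of all tested genes, and those by DESeq2 beside 943 genes. Without PBS 2, 4493 of all tested genes were higher, and 3920 without both PBS 2 and LPA 3. Lower genes numbered 619 without PBS 1 and 548 without LPA 1. Among the inducers and partners of IRFs, 17 of 18 genes were tested, of which 5 were lower and 3 higher, with a median log2 fold change of -0.04. The share that was higher was no larger than that of all tested genes. On rescaled FPM 6 were lower and 2 higher. TYK2, a kinase of the interferon alpha and beta receptor, went from 218 ± 3.61 to 154 ± 13.1 FPM (-0.50; limma, adjusted p = 1.60e-08). JUN, a subunit of AP-1, went from 56.1 ± 4.13 to 39.3 ± 4.98 FPM (-0.51; limma, adjusted p = 2.14e-05). IKZF3, the lymphoid factor Aiolos, was higher, from 263 ± 19.7 to 361 ± 16.9 FPM (0.46; limma, adjusted p = 1.53e-08). STAT2 and REL were also lower, and IKZF1 and ETV6 were the other higher genes. REL did not pass without LPA 2 (limma, adjusted p = 0.0675), and IKZF1 did not pass on rescaled FPM (0.238), without PBS 3 (0.0677) or without LPA 3 (0.0861). RELA and NFKB1, subunits of NF-kappaB, did not pass, at -0.04 (limma, adjusted p = 0.766) and -0.07 (0.638).

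Among receptors, adaptors and kinases upstream of IRF5, IRF7 and IRF3, 15 of 19 genes were tested. By limma 3 were higher, a share no larger than the 22.5% of all tested genes, and 0 were lower, with a median log2 fold change of -0.01, and 1 was lower at an unadjusted p under 0.05. Scaling changed this picture: 4 were lower and 2 higher on rescaled FPM, edgeR also called 4 lower, and DESeq2 called 2. Without PBS 2, 5 were higher, and without PBS 1 or LPA 1, 1 was lower. MYD88, the adaptor of Toll-like receptors, went from 16.7 ± 2.03 to 25.7 ± 0.935 FPM (0.60; limma, adjusted p = 6.27e-05). MAVS, the mitochondrial adaptor of RNA sensors, went from 118 ± 6.24 to 151 ± 11.7 FPM (0.36; limma, adjusted p = 5.64e-05). STING1, the adaptor of DNA sensing, went from 23.0 ± 0.398 to 31.0 ± 5.42 FPM (0.40; limma, adjusted p = 0.00378), a call lost on rescaled FPM (adjusted p = 0.0547) and without LPA 3 (adjusted p = 0.0946). The endosomal receptors TLR3, TLR7 and TLR8 had at most 1.09, 1.01 and 0.804 FPM in any library, under the level tested. TBK1, the kinase that phosphorylates IRF3 and IRF7, did not pass, at -0.05 (limma, adjusted p = 0.692), but was called lower on rescaled FPM, at -0.19 (limma, adjusted p = 0.0375).

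Of 9 negative regulators of IRFs and interferon signalling, 3 were lower and 1 higher, or 2 higher without PBS 2, with a median log2 fold change of 0.07. SOCS1, an inhibitor of JAK kinases, went from 6.67 ± 0.849 to 2.89 ± 0.419 FPM (-0.98; limma, adjusted p = 0.000110). RBCK1, known as HOIL-1 and linked to IRF3 turnover, went from 39.6 ± 1.77 to 30.8 ± 4.10 FPM (-0.36; limma, adjusted p = 0.00402) and did not pass without LPA 2 (adjusted p = 0.0864). USP18, which blocks the interferon alpha and beta receptor, went from 28.1 ± 1.59 to 22.4 ± 0.751 FPM (-0.31; limma, adjusted p = 0.0207) and did not pass without PBS 1 (0.0604), LPA 1 (0.0904) or LPA 3 (0.0501). TRIM28, a corepressor linked to IRF7 sumoylation, was the higher one, from 212 ± 3.05 to 251 ± 16.7 FPM (0.24; limma, adjusted p = 0.00141), but did not pass on rescaled FPM (0.10, adjusted p = 0.116). The partners of IRF2-binding proteins gave 2 tested genes of 5, with 0 higher and 0 lower by limma, edgeR or DESeq2 and at an unadjusted p under 0.05.

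Genes described as targets of IRF1 were mostly lower. Of 29 such genes 26 were tested, of which 17 were lower, 1 was higher and 8 did not pass, with a median log2 fold change of -0.34. On rescaled FPM 19 were lower and 0 higher, and edgeR and DESeq2 called 19 and 18 lower. Without PBS 2, with or without LPA 3, 2 were higher. PARP14, an interferon-induced ADP-ribosyltransferase, measured 417, 466 and 433 FPM with PBS and 140, 139 and 147 FPM with LPA (-1.62, SE 0.06; limma, adjusted p = 3.79e-29). CCL5, a chemokine that attracts T cells, measured 35.3, 38.7 and 36.2 FPM with PBS and 5.60, 5.24 and 4.90 FPM with LPA (-2.59, SE 0.13; limma, adjusted p = 7.96e-23). PARP14, CCL5 and GBP2, given next, had log2 fold changes below that of IRF1. These differences were not tested. GBP2, an interferon-induced GTPase, measured 12.6, 17.9 and 15.3 FPM with PBS and 4.69, 6.58 and 4.61 FPM with LPA (-1.37, SE 0.16; limma, adjusted p = 2.73e-09).

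The class I antigen presentation genes of this list had log2 fold changes nearer to 0. TAP1, a subunit of the peptide transporter, measured 267, 268 and 264 FPM with PBS and 178, 170 and 199 FPM with LPA (-0.55, SE 0.06; limma, adjusted p = 4.95e-10). NLRC5, the coactivator of class I genes, had a log2 fold change of -0.50 (limma, adjusted p = 7.67e-08). HLA-B and HLA-C were at -0.22 and -0.25 (limma, adjusted p = 0.000180 and 0.000923); their reads can be split between near-identical copies, so these values are uncertain. The immunoproteasome subunit PSMB9 fell by 0.32 on the log2 scale (limma, adjusted p = 0.00274), while PSMB8 did not pass at -0.11 (adjusted p = 0.351) and B2M, the light chain of class I, did not pass at -0.08 (adjusted p = 0.123). On rescaled FPM both passed as lower, PSMB8 at -0.25 (limma, adjusted p = 0.0101) and B2M at -0.22 (adjusted p = 1.15e-06). CASP8, an initiator caspase, was the higher gene at 0.27 (limma, adjusted p = 0.00106), and it was not called on rescaled FPM, by edgeR or by DESeq2. Whether the change of these genes and that of IRF1 are linked was not tested.

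Of 8 genes described as IRF8 targets in B cells and myeloid cells, 5 were tested, with 2 lower and 1 higher and a median log2 fold change of -0.18. CIITA, the coactivator of class II antigen presentation genes, which also stands in the IRF1 list, measured 65.7, 66.9 and 64.5 FPM with PBS and 49.4, 45.5 and 54.3 FPM with LPA (-0.40; limma, adjusted p = 0.000211). CYBB, the membrane subunit of the phagocyte oxidase, was the higher one, from 0.781 ± 0.0964 to 1.84 ± 0.334 FPM, by 0.67 (limma, adjusted p = 0.0393). Its PBS libraries all lay under 1 FPM, at 4 to 5 reads, against 13 to 15 reads with LPA. It thus entered the test only through its LPA libraries and is not read as a rise here. The call was lost on rescaled FPM (limma, adjusted p = 0.0886) and by edgeR's quasi-likelihood test (adjusted p = 0.0821). Leaving out any 1 library ended it too (limma, adjusted p 0.0575 to 0.146). The interferon genes themselves were low. Of 10 interferon genes 4 had values and 2 were tested, with 0 higher and 0 lower by limma, edgeR or DESeq2 and at an unadjusted p under 0.05. IFNG, the gene of interferon gamma, lay at 2.70 ± 0.822 FPM with PBS and 2.79 ± 0.604 FPM with LPA (limma, adjusted p = 0.910). IFNB1 had 0.182 to 0.571 FPM, where 3 reads are worth 0.343 to 0.546 FPM, so a difference was not detectable at this depth.

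**Figure D4:**
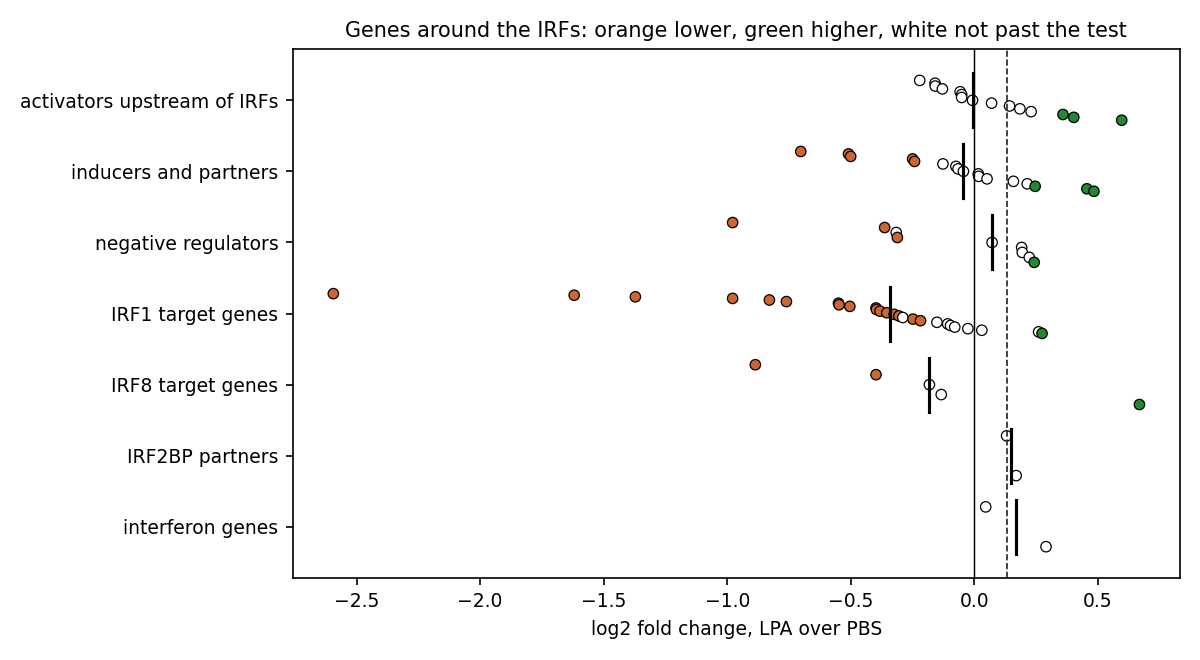
log2 fold change, LPA over PBS, of every tested gene in the lists around the IRFs (points; orange passed as lower, green as higher, white did not pass limma's adjusted 0.05). Of 26 IRF1 target genes 17 are orange and 1 is green, against 5 and 3 of 17 inducers and partners.

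The genes nearest to each changed gene in pattern were taken from 12025 other genes with a mean of at least 5 FPM. The measure was the Euclidean distance over the 6 libraries between log2(FPM + 1) values, centred on the gene's own PBS mean. The nearest to IRF1 were TNFAIP3, an NF-kappaB inhibitor known as A20, at a distance of 0.118, the secreted glycoprotein gene CHI3L1 at 0.123 and the ubiquitin ligase gene PELI1 at 0.186. TNFAIP3 went from 122 to 51.7 FPM, or by -1.22 on the log2 scale. The nearest to IRF5 were HLA-E, a nonclassical class I gene, at 0.115, SHFL at 0.125 and MAPK12 at 0.129. IRF7 was nearest to PIK3C2B at 0.0921, HEXIM1 at 0.118 and CIITA at 0.121. IRF2BPL was nearest to CORO6 at 0.0987, PRRG4 at 0.112 and RHOB at 0.118, and IRF2BP1 to ZFP36 at 0.106, ZNF460 at 0.130 and KCNC4 at 0.133. With 6 libraries in 2 groups, such a distance mostly reads the size of the change.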

How the data were processed

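The authors deposited 1 table of FPM, a CPM unit, with a column for each of 24 lanes; 0 value columns were left unmapped. The sources used here do not give the aligner, the counter or its strand setting. For the build, mm10 (mouse) stands in the submitters' processing notes, while the identifiers are human Ensembl ones; no coordinates were taken from the table. The deposited values were whole multiples of a unit fitted in each lane in 100% of cases (tolerance 0.02 units). That unit was fitted from the smallest value upward and taken to be 1 read, which is an assumption. On that reading, listed genes held 86.5% to 91.6% of each library's total. Of 19345 rows with a gene, 187 repeats were dropped, and 1 row without a gene was left out. Reads without molecular identifiers give limits that cover counting error only.

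Lanes were averaged per library, with groups from the treatment label. Tested were the 16274 genes that reached 1 FPM in 3 or more of 6 libraries, with limma 3.58.1 (R 4.3.3; trend, robust, two-sided, Benjamini-Hochberg) on log2(FPM + 1), a scale that understates changes of low genes. Recovered reads were also tested with edgeR 4.0.16 (quasi-likelihood, TMM) and DESeq2 1.42.0. Scripts were tested on simulated data with 200 changed genes. Ratios of genes within a library were compared by exact permutation. Named were the whole set, up to 4 genes of each list with the smallest p past the threshold (else the highest), and the 3 nearest in pattern to each changed gene; other named genes were chosen after their values were seen. The set and lists were chosen with earlier results of these data known. Leaving out PBS 2 and LPA 3 together was added after seeing the data. Some genes of the lists are not reported here.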

Additional observations from a re-analysis of the deposited data

How the results depend on the processing

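Scaling moved the counts over all genes most. Genes higher with LPA were 3666 by limma on FPM, 1633 on rescaled FPM, 1560 by edgeR and 802 by DESeq2. Genes lower numbered 731 by limma on FPM, 1497 after rescaling, 1529 with edgeR and 943 with DESeq2. Leaving out 1 library gave 2459 to 4493 higher and 540 to 711 lower. Of the IRF set, 4 to 5 genes were lower when 1 library was left out and 0 were higher under every setting run. The IRF1 to IRF2 ratio was lower with LPA without any 1 library as well. The library numbers did not pair the samples (correlations of same-numbered deviations -0.01, -0.04 and -0.05). With the replicate block 4 genes of the set were lower, IRF2BP1 being lost (limma, adjusted p = 0.0651), and the ratio differed by -1.08. IRF2BP1 was also lost with no filter on low values (limma, adjusted p = 0.0576). Over the settings run, the log2 fold changes of IRF5, IRF7 and IRF2BPL lay between -0.71 and -0.50, -0.61 and -0.38, and -0.76 and -0.48, and each passed throughout. No value changed sign among those called. The ratio of IRF8 to IRF4 was planned and not run. At 85 to 114 reads, IRF2BPL is the value that depth limits most.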
